A study of Mus musculus with 6 samples.

Results

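The cytosolic chaperonin CCT, also called TRiC, was followed through its subunit genes in subcutaneous tumours in which an overexpressed microRNA was turned off. The members were taken by gene symbol: Tcp1, Cct2, Cct3, Cct4, Cct5, Cct6a, Cct7 and Cct8, and Cct6b, the testis-type paralogue of Cct6a. All 9 were found among 29209 genes and transcripts in the authors' deposited table, each once, and all 9 were among the 18543 entries that have p-values. No minimum on expression was applied to choose them.

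The 3 DOX samples came from tumours of NCr nude mice that were given doxycycline (DOX) for 16 hours before harvest, in a grain-based chow with 2.3 mg/kg, and the 3 no DOX samples from tumours of NCr nude mice with no treatment. In both groups the tumours grew under the skin from injected spleen cells of diseased mir-155LSLtTA donors, so both groups carry the same miR-155 transgene, and DOX turns it off. Nude mice lack a thymus and have few mature T cells. No tumour without the transgene was given DOX, so that effects of DOX itself and of miR-155 withdrawal cannot be told apart, and the level of miR-155 is not analysed here.

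CCT is a barrel of stacked rings. Each ring holds 8 different, related subunits, each encoded by its own gene, and closes over a client protein while ATP is hydrolysed. Actin and tubulin are its best-known clients. Prefoldin and other cofactors bring proteins to it, and its load is high in cells that grow and divide. In mice, Cct6b is made mainly in testis.

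The authors' deposited table gives 1 ratio per gene with an unadjusted and an adjusted p-value. It has no value per sample, no group mean and no standard error, and sequencing depth is unknown, so values cannot be shown sample by sample and overlap of the groups cannot be seen. The ratio was read as DOX over no DOX, which the table itself does not state. If the authors divided the other way, "lower" and "higher", "fell" and "rose" exchange places throughout. An approximate standard error (SE) of each log2 fold was taken as its absolute value over the normal quantile of the two-sided p. It restates the authors' p on the fold scale and adds no evidence.

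All 8 subunits of the CCT ring fell with DOX, to between 23.8% and 49.3% of the no DOX level by the ratios in the authors' deposited table. Were the ratio the other way round, the same values would put DOX between 2.03 and 4.21 times the no DOX level. Their median log2 fold was -1.52, against 0.17 over all 15784 tested entries with a finite fold. At the authors' adjusted p under 0.05, 8 of the 9 members were lower and 0 were higher, beside 5.61% of all tested entries that were lower and 5.72% that were higher. The member that did not pass was Cct6b. The tumours are mixed tissue measured in bulk, in which fewer cells of a type and less RNA per cell cannot be told apart. Whether the samples of a group are separate animals is not stated in the labels, so the p-values cover the spread among these samples alone, and that spread may be technical.

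Cct6a, the zeta subunit, had the lowest ratio of the 8. In the authors' deposited table its ratio was 0.238, a log2 fold of -2.07 (approximate SE 0.39, 3 samples a group), with an adjusted p of 1.24e-05. It stood at rank 165 of the 18543 tested entries by p. Cct3, the gamma subunit, followed at a ratio of 0.256 in the authors' deposited table, a log2 fold of -1.96, with the widest approximate SE of the set (0.45) and an adjusted p of 0.000542. All other subunits had ratios of 0.314 or more.

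Cct7, the eta subunit, had a ratio of 0.314 in the authors' deposited table, a log2 fold of -1.67 (approximate SE 0.36) and an adjusted p of 0.000204. Tcp1 encodes the alpha subunit, the founding member of the family, and its ratio in the authors' deposited table was 0.336 (log2 fold -1.57, adjusted p 0.000840). Both lay near the middle of the 8. Cct5 (epsilon), Cct8 (theta) and Cct2 (beta) lay close to one another. In the authors' deposited table Cct5 had a log2 fold of -1.47 with an adjusted p of 0.00131. Cct8 had a log2 fold of -1.46 with an adjusted p of 0.00442, and Cct2 one of -1.40 with an adjusted p of 0.00195, in the authors' deposited table.

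Cct4, the delta subunit, changed least and was closest to the threshold. Its ratio in the authors' deposited table was 0.493, a log2 fold of -1.02 (approximate SE 0.34), with an adjusted p of 0.0293. Of the 8 it was the 1 that did not pass at an adjusted p under 0.01, a limit that 3.07% of all tested entries passed on the lower side.

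**Figure D1:**
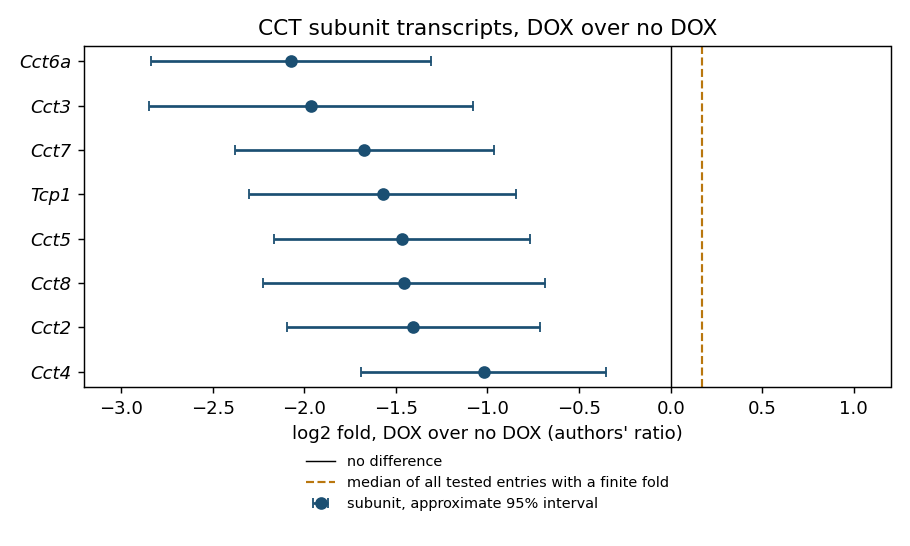
Log2 fold, DOX over no DOX, of the 8 subunits with a finite ratio (points), with approximate 95% intervals rebuilt from the authors' p-values (bars). All 8 intervals lie below 0 and below the median of all tested entries at 0.17 (dashed line), from Cct6a at -2.07 to Cct4 at -1.02; Cct6b has a ratio of 0 and is not drawn.

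The 8 folds lay close together. Their SD was 0.33 on the log2 scale, a little under the median approximate SE of a single subunit, 0.37, and the approximate 95% intervals overlapped in 28 of 28 pairs. Intervals this wide overlap readily, so the overlap does not show that the folds are equal. The same spread was not taken for other sets of genes. The distance from Cct6a to Cct4 was 1.05 on the log2 scale. Differences between subunits were not tested, because their errors come from the same 6 samples and how those errors vary together cannot be had from the authors' deposited table. All 8 lay in the lower tail of the 15784 finite folds. Cct6a had 2.67% of them below it and Cct4 14.2%.

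**Figure D2:**
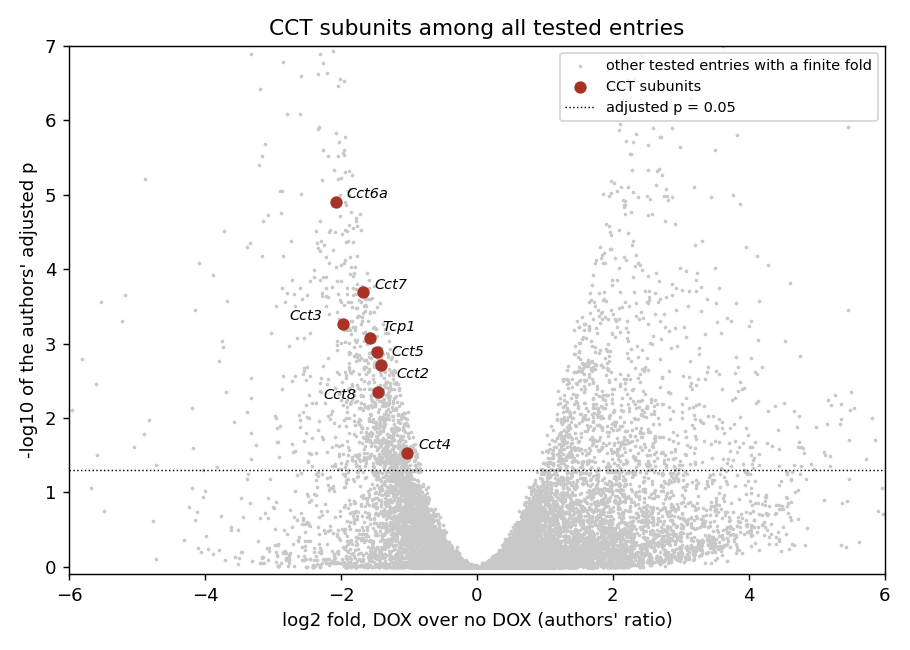
Log2 fold, DOX over no DOX, against -log10 of the authors' adjusted p for all tested entries with a finite ratio (grey) and the 8 CCT subunits (red). The subunits form a compact group on the lower side, all above the dotted line at an adjusted p of 0.05; 75 entries lie outside the axes.

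Cct6b, the testis-type zeta-2 subunit, is listed at a ratio of 0 with an adjusted p of 1 in the authors' deposited table. A ratio of 0 means that the group in the numerator, here read as DOX, was at 0, and with an unadjusted p of 0.803 no difference was detectable. No fold is given for it. Of the 579 tested entries with a ratio of 0, 7 passed the threshold. Of 7 germ cell markers, 3 were tested and 0 passed in the authors' deposited table, each listed at a ratio of 0 or Inf, and Dazl, Sycp3, Tnp1 and Prm2 have no p-value there. Cct6a and Cct6b are the most alike of the family, with 74.5% identical bases over 1590 aligned bases of their longest open reading frames. The other 35 pairs had 53.8% to 59.5%. No 50-base window of the Cct6a transcript, of 2405, occurs in the Cct6b transcript without a mismatch.

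The start regions of the subunit genes were read next, because all 8 ring subunits were called lower. RefSeq promoter windows on GRCm38.p6, from 250 bases before to 50 after the start, were at hand for 8 of the 9 genes, Cct4 being the other, and Cct2 and Cct5 had 2 windows each, 10 windows in all. Both strands were searched for 5 motifs. The ETS core (CCGGAA) stood in the windows of 6 genes, namely Tcp1, Cct2, Cct5, Cct6b, Cct7 and Cct8, against 30.1% of 10267 tested genes with a window and 33.3% of 833 genes called lower. The CCAAT box (CCAAT) stood in 5, Tcp1, Cct3, Cct6a, Cct6b and Cct7, against 42.8% and 48.9%. The GC box (GGGCGG) stood in 7, all but Cct6b, against 66.9% and 73.8%. The heat shock element core (GAANNTTC) stood in Cct2 alone, against 6.94% and 7.20%. That match lies before the more downstream of the 2 Cct2 starts and after the other start. The E-box (CACGTG), the motif read by MYC and its partners, stood in 0 of the 8, against 11.5% and 13.3%. Over all 32851 windows the shares were 14.9% for the ETS core, 37.4% for the CCAAT box, 35.7% for the GC box, 7.86% for the heat shock element core and 7.15% for the E-box. The GC box, found in all 7 fallen subunits that have a window, was also the commonest of the 5 motifs among genes called lower, at 73.8%. It is therefore not particular to the subunits. A match in these letters is a description of the sequence and not a binding site.

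The matches nearest the start that lie wholly before it are shown for subunits that fell, as the gene's own strand reads 5′ to 3′, with the motif in capitals, to let the surrounding bases be compared. ATTGG is the CCAAT box, and TTCCGG the ETS core, on the other strand. The capitals begin 132, 33, 29 and 95 bases before the start in the CCAAT box stretches of Tcp1, Cct3, Cct6a and Cct7. In the ETS core stretches of Tcp1, Cct2, Cct7 and Cct8 they begin 193, 17, 23 and 37 bases before it. The ETS core of Cct5, 53 bases before the more downstream of its 2 starts, lies after its other start and is not shown.
Tcp1 CCAAT box, chr17:12916187-12916211, plus strand: ccctggctcaCCAATcaccgcagac
Cct3 CCAAT box, chr3:88297092-88297116, plus strand: gagtttggtgATTGGcggcacttca
Cct6a CCAAT box, chr5:129787317-129787341, plus strand: gggtcgccacCCAATggaggtgctc
Cct7 CCAAT box, chr6:85451400-85451424, plus strand: ccgggcgctgATTGGccaaaactct
Tcp1 ETS core, chr17:12916126-12916151, plus strand: tctcaaggacCCGGAActaacaagct
Cct2 ETS core, chr10:117063854-117063879, minus strand: gccgctacgcTTCCGGcccagcccgc
Cct7 ETS core, chr6:85451472-85451497, plus strand: gacgcgcctcCCGGAAcctgcggtgg
Cct8 ETS core, chr16:87495891-87495916, minus strand: ggcggggcgaCCGGAAgtagggggac

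Transcripts of 4 subunits share long stretches with a gene on the opposite strand in GENCODE release M21, and the sources used here do not give whether reads were counted by strand, so reads of such pairs may not have been told apart. At a minimum of 100 bases, Tcp1 shares 574 bases with Acat3 and 445 with Acat2, Cct6a shares 452 with Psph, Cct7 shares 215 with Pradc1 and Cct8 shares 192 with Usp16, each at 98.7% identity or more. On the same strand, Cct7 shares 209 bases at 97.1% identity with the processed pseudogene Gm5380. Acat2, an acetyl-CoA acetyltransferase, fell as well, with a log2 fold of -3.08 and an adjusted p of 1.88e-05 in the authors' deposited table. The other 4 neighbours did not pass: Psph (-0.81), Pradc1 (-1.16, listed as 1700040I03Rik), Acat3 (1.44) and Usp16 (1.09) in the authors' deposited table. The 4 subunits without such a neighbour, Cct2, Cct3, Cct4 and Cct5, had a median log2 fold of -1.44, and the 4 with one had -1.62. All 4 without one passed. One entry outside the rule, AK163149, is described in the authors' deposited table as a cDNA clone of the alpha subunit, and it had a log2 fold of -0.37 with an adjusted p of 1.

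Fold moved with transcript length over the whole table. In bins of 10% of the entries by length, the median log2 fold was -0.64 for the shortest transcripts and 0.70 for the longest. The 8 subunits have transcripts of 1853 to 2484 bases and a GC content of 43.3% to 54.0%. The other 1785 entries of that length had a median log2 fold of -0.18, with 10.3% of them lower at the same threshold. Of the 938 that also shared the GC range, 11% were lower, with a median of -0.19. Relative to these medians, the median of the subunits was -1.34 and -1.33.

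**Figure D3:**
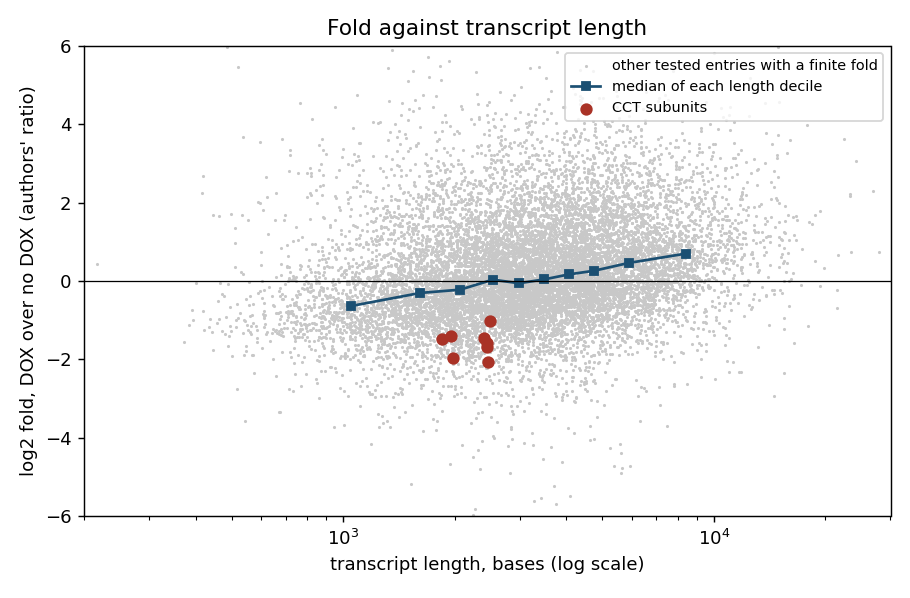
Log2 fold, DOX over no DOX, against the length of the longest protein-coding GENCODE transcript in bases (log axis). Grey points are tested entries with a finite ratio and such a transcript. Squares are the medians of bins of 10% of the entries by length, and red points are the 8 CCT subunits. For Cct6a a transcript not annotated as coding was used. The medians run from -0.64 for the shortest to 0.70 for the longest, and the subunits lie below the medians of transcripts of their own length.

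The cofactors that serve CCT passed in fewer cases than its subunits, a difference that was not tested. Calls rest on precision as well as on the size of a fold. Approximate SEs were 0.57 for Pfdn1, 0.81 for Pfdn4 and 0.58 for Rpap3, against 0.34 to 0.45 over the subunits. Those of Tbcd (0.38), Vbp1 (0.42), Pdcl (0.42) and Tbcb (0.43) lay within the subunits' range. For Pfdn1, Pfdn4 and Rpap3, a missing call therefore need not mean a smaller fall. Of the 6 prefoldin genes, whose products hand unfolded actin and tubulin to CCT, 1 was lower and 0 higher, a count close to the background. This and the list counts that follow stand beside the 5.61% of all tested entries that were lower. They also stand beside the 10.3% of those with a finite fold and transcripts as long as the CCT subunits'. The prefoldin gene that was lower was Pfdn6, listed as H2-Ke2, with a log2 fold of -1.66 and an adjusted p of 0.0330 in the authors' deposited table. By the authors' deposited table Pfdn1 (-1.23), Pfdn4 (-1.09), Pfdn2 (-0.63) and Vbp1 (0.31) missed the threshold. The prefoldin median was -0.86. Of 7 genes of the prefoldin-like and R2TP complex, a partner of HSP90 in building large assemblies, 3 were lower and 0 higher, with a median of -1.02. The ATPase genes Ruvbl2 (-1.83, adjusted p 0.00348) and Ruvbl1 (-1.38, 0.00643) and the prefoldin-like gene Pdrg1 (-1.60, 0.00725) fell in the authors' deposited table. In the authors' deposited table the threshold was not reached by Rpap3 (-1.02), Pih1d1 (-0.72), Uxt (-0.91) and Uri1, listed as C80913 (-0.53).

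Phosducin-like proteins bind CCT and help it fold G protein beta subunits. Of 3 such genes 2 were tested and 0 passed, Pdcl (0.49) and Pdcl3 (-0.16) having no call in the authors' deposited table. The tubulin folding cofactors take tubulin on after CCT has released it, and 0 of 6 passed, with a median of -0.53. Tbcd (-0.73), Tbce (0.94), Tbcb (-0.69) and Arl2 (-0.80) came closest to the threshold by the authors' deposited table. Mkks and Bbs12, which encode chaperonin-like proteins that are related to CCT and needed to build the BBSome of cilia, stood at -0.06 and 1.37 (log2 folds) by the authors' deposited table and missed the threshold. At an unadjusted p under 0.05, 0 of these 10 tested genes passed too, and the share of all entries at that limit was not taken. The log2 folds of all 10 lay above the -1.02 of Cct4, the least changed subunit. The lowest was that of Arl2 at -0.80, and the difference was not tested.

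Of CCT's main clients, the cytoplasmic actins fell and the muscle actins did not pass. Actg1 had a log2 fold of -1.96 with an adjusted p of 2.51e-06, and Actb one of -1.77 with an adjusted p of 2.66e-05, in the authors' deposited table. Acta2 (2.04), Acta1 (2.26) and Actg2 (1.77) had approximate SEs of 2.10 or more, so no change was detectable in the authors' deposited table. Of 14 tested tubulin genes 9 were lower and 0 higher, with a median of -1.77. Tuba1b (-2.34), Tubb5 (-1.78), Tubb4b, listed as Tubb2c (-1.76), and the gamma tubulin gene Tubg1 (-2.22) had adjusted p-values up to 0.000128 in the authors' deposited table. Tuba4a (-3.77), Tuba8 (-5.81), Tubb3 (-7.87), Tuba1c (-1.71) and Tuba1a (-1.30) also fell in the authors' deposited table. The folds of Tuba8 and Tubb3 are imprecise, with approximate SEs of 1.43 and 1.89, against 0.40 to 0.48 for Tuba4a, Tuba1c and Tuba1a. No call was made in the authors' deposited table for Tubb2b (2.08), Tubg2 (-2.48), Tubb6 (1.70) and Tubb4a, listed as Tubb4 (1.60). Several actin and tubulin genes are nearly identical in sequence, and how reads were shared out among them is uncertain.

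Of 15 tested genes of other reported clients, 3 were lower and 0 higher, with a median of -0.75. The G1 cyclin gene Ccne1 (-2.68, adjusted p 0.00276), the mitotic kinase gene Plk1 (-1.61, 0.000499) and Cdc20, an activator of the anaphase-promoting complex (-1.36, 0.0315), fell in the authors' deposited table. Its relative Fzr1 (-0.96, 0.0801), the G protein genes Gnb1 (-0.88, 0.0915) and Gnb2 (-0.75, 0.159) and the deacetylase gene Hdac3 (-0.93, 0.139) missed the threshold by the authors' deposited table. Fzr1, Gnb1, Gnb2 and Hdac3 had unadjusted p-values of 0.0110, 0.0133, 0.0294 and 0.0243 in the authors' deposited table. The 16th gene of this list, Rptor, stands there under 2 names and was not used.

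The other chaperones differed in which genes passed, and differences between their folds were not tested. Both genes of the mitochondrial chaperonin, the bacterial-type relative of CCT, were lower, Hspd1 at a log2 fold of -2.22 (adjusted p 0.000229) and Hspe1 at -2.05 (0.000142) in the authors' deposited table. Of 17 genes of the cytosolic HSP70 and HSP90 system 15 had a ratio below 1 and 2 above 1, and 9 had an unadjusted p under 0.05. Of all tested entries with a finite fold, 44.1% had a ratio below 1. Among the other entries with transcripts as long as the CCT subunits', it was 57.6%. The share of all entries at an unadjusted p under 0.05 was not taken. At the adjusted threshold 4 of the 17 were lower and 0 higher, with a list median of -1.01. These were the constitutive HSP90 gene Hsp90ab1 (-2.61, 4.17e-09) and the genes of the HSP90 cochaperones Ptges3 (-1.65, 0.000694), Stip1 (-1.93, 0.00261) and Ahsa1 (-1.58, 0.0326), with adjusted p-values from the authors' deposited table. Hspa4 (-1.01, 0.0606), Cdc37 (-0.995, 0.0607), St13 (-1.05, 0.0774) and Hspa8, the constitutive HSP70 gene (-1.15, 0.131), missed it by the authors' deposited table. Hsf1 and Hsf2, which encode heat shock factors, stood at -0.31 and 0.14 (log2 folds) by the authors' deposited table and were not called.

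**Figure D4:**
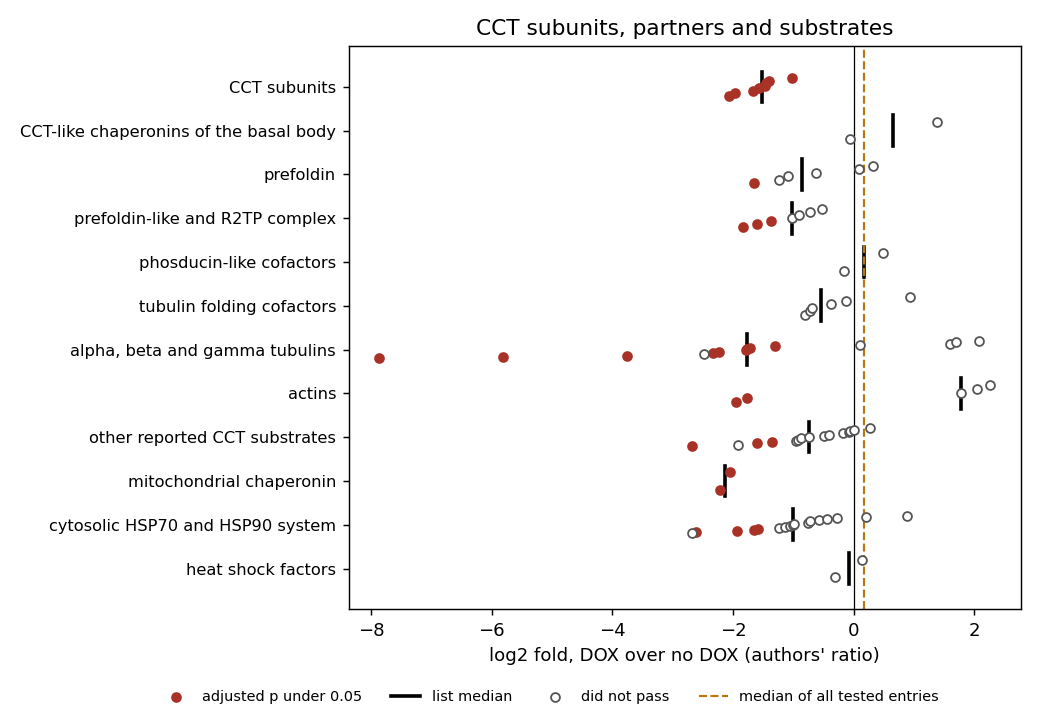
Log2 folds, DOX over no DOX, of the CCT subunits and of 11 lists of cofactors, clients and other chaperones, 1 point per gene with a finite ratio, filled red where the authors' adjusted p is under 0.05; thick bars are list medians and the dashed line is the median of all tested entries. The CCT row is filled throughout, between -2.07 and -1.02, while in the other lists with more than 2 genes filled and open points stand side by side or all points are open.

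Cell type markers moved in the same comparison. The counts of calls that follow stand beside 5.72% of all tested entries called higher and 5.61% called lower. Counts of ratios above or below 1 stand beside 44.1% of tested entries with a finite fold that had a ratio below 1. All 9 macrophage markers had a ratio above 1, with log2 folds of 0.79 to 4.75, a median of 2.16 none of them at 0 in either group, and 2 called higher, Csf1r and Mertk, in the authors' deposited table. All 7 fibroblast markers did so too, from 0.13 to 3.74, with a median of 2.26 and 2 called higher, Pdgfra and Postn, in the authors' deposited table. Of 9 B lineage markers 3 were called higher, namely Ebf1 (1.61), Cd72 (1.24) and Blnk (1.04), and 0 lower in the authors' deposited table, beside 5.72% of all tested entries called higher. The B lineage log2 folds ran from -4.12, for Ms4a1 (unadjusted p 0.0368, adjusted p 0.183), to 1.61 in the authors' deposited table, with 3 of the 9 ratios below 1 and a median of 0.56. All 9 ratios are finite, so these genes were read in both groups. Of 5 tested T cell markers 0 passed (median 0.82), and of 5 endothelial markers Eng alone passed, on the lower side (list median 0.89), in the authors' deposited table. The part of cell composition in the fall of the CCT subunits was not tested.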

How the data were processed

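RNA of 6 tumour samples was extracted from dispersed cells after lysis of red blood cells, and libraries were made after ribosomal RNA depletion, per the labels' protocols. The build mm9 and the tools RSEM and DESeq are named, without versions, per the submitters' processing notes. The authors deposited 1 table of their comparison, whose fold column is a linear ratio and whose p-value columns are unadjusted and adjusted, per the file headers. Repeating a Benjamini-Hochberg adjustment over the 18543 entries with a p gave the deposited adjusted p-values to within 2.09e-06. Depth is unknown. The deposited log2 column is broken in 579 cells, those with a ratio of 0, so log2 values were computed from the ratio.

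No test across samples was run: calls are those with the authors' adjusted p under 0.05. The members and lists were chosen with earlier results of these data known. Named genes are all members and, per list of cofactors, clients or chaperones, all that passed and up to 4 that did not, by adjusted p. Of tested entries, 15164 matched a current symbol by symbol, RefSeq accession or unique synonym. Transcript lengths, GC and overlaps came from GENCODE M21, with blastn 2.17.0 (95% identity over 100 bases or more), and for Cct6a from a transcript not annotated as coding. Approximate intervals are at 95%. Protein sequences were not used here. The adjustment was tested on simulated data. The approximate SE was checked on simulated p-values made from a normal statistic, which its formula recovers by construction. How well it holds for the authors' p-values was not tested. Python 3.11.15, pandas 2.3.3 and scipy 1.17.1 were used. Alternatives were other thresholds, other tested sets, other centres of the fold scale and other members.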

Additional observations from a re-analysis of the deposited data

How the results depend on the processing

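The 8 subunits called lower stayed 8 at an adjusted p under 0.1, with the adjustment repeated over finite folds and over protein-coding matches, and became 7 under 0.01, without Cct4. A Bonferroni adjustment over all 18543 tested entries left 1 subunit, Cct6a. Cct6a had a Bonferroni value of 0.00204 and Cct7, the next, 0.0638. Taking only subunits with no opposite-strand overlap, an alternative chosen after seeing the data, left 4 of 4, fewer by construction. The median log2 fold of -1.52 lay between -1.69, relative to the median of all tested entries, and -1.33, relative to entries of like length and GC, the latter also chosen after seeing the data. It was -1.57 with Cct6b ranked lowest, also chosen after seeing the data. Over the 11 other lists, 24 members were called, all lower, and 20 at an adjusted p under 0.01. Of all tested entries, 5.61% and 3.07% were lower at these limits. The 24 include 9 tubulin and 2 actin genes, among which reads may be shared. All 8 folds stayed negative relative to the median of all tested entries, at -1.19 or below. No paired analysis was possible because the table holds no values per sample, and for the same reason leaving out samples and a filter on low values were not run.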
